A study of Mus musculus with 9 samples.

Results

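RNA sequencing (RNA-seq) of mouse lymph nodes was used here to compare NrasQ61K mice whose libraries are labelled MHCII-KO with wild-type (WT) mice. The comparison takes 6 of the 9 libraries of the series: 3 labelled MHCII-KO and 3 WT. The other 3 libraries come from Tyr-NrasQ61K mice with wtMHCII status, and they enter where a change needs to be read with and without the MHCII label. The table holds 37801 usable entries, and the 11902 protein-coding genes with 3 or more of the 9 libraries at an FPKM of 1 or above were tested. FPKM is the number of fragments scaled by transcript length and by the mapped fragments of the library. A shift between whole libraries can remain after this scaling, and the shift seen here is described below.

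WT mice carried neither change and are labelled as strain FVB/NJ. Tyr-NrasQ61K mice carry a mutant Nras transgene under the tyrosinase promoter, which is active in pigment cells, on an albino background labelled FVB/NJ (Cross), and their titles read Cre-negative and MHC-positive. The MHCII-KO group carries the same transgene on the same labelled strain, with titles that read Cre-positive and MHC-negative. Controls are described as albino littermates without the transgene, yet their strain label differs from that of both NrasQ61K groups, so the transgene and the cross cannot be told apart. Between the NrasQ61K groups, Cre and MHC status change together in the titles and cannot be told apart either. Against WT, the MHCII-KO group differs in the transgene, the cross and the Cre and MHC labels at once. The labels do not name the class II gene that was removed, the cells that lost it or the promoter driving Cre, and they give no ages. They do not say that each library came from a different animal, so p-values measure the spread between these samples, which may be technical. All 9 libraries were sequenced on 1 flow cell.

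The samples are labelled as nevus melanocytes, while the study describes RNA from whole lymph nodes. The transcripts were those of lymphoid tissue: summed FPKM of 20 B cell genes was 754 to 938 in the MHCII-KO libraries, against 53.3 to 66.3 for a list of 20 pigment cell genes. Of those 20, 7 did not reach the filter, among them Tyrp1 and Sox10, and Mc1r was not analysed here. In such bulk RNA, fewer cells of a type and less RNA per cell cannot be told apart.

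Lymph nodes hold lymphocytes in a reticular scaffold, macrophages that line the sinuses, and dendritic cells that arrive from the skin with antigen. MHC class II molecules, loaded with peptide in endosomes with the help of the invariant chain Cd74, present that antigen to CD4 T cells. Melanocytes are normally rare in nodes. Oncogenic NRAS can drive them into oncogene-induced senescence, a lasting arrest accompanied by secreted factors.

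Libraries differed within groups as well as between them. The first principal component held 59.1% of the variance and ran from WT replicates 1 and 3 at one end to replicate 2 of the MHCII-KO and Tyr-NrasQ61K groups at the other. On it the WT libraries (-50.0 to -12.1) lay apart from the MHCII-KO libraries (-0.5 to 47.8), with a wide spread inside each group. B2m, the light chain of class I molecules, was 136 FPKM in MHCII-KO replicate 2 against 656 and 391 FPKM in the other MHCII-KO libraries and 722 to 1700 FPKM in WT. B2m was named after its values were seen. Across all genes tested, the median log2 fold change of the MHCII-KO group against WT was -0.25, and 72.7% of genes lay below 0. Changes below are read beside that shift.

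MHC class II transcripts were present at high levels in every library labelled MHCII-KO. H2-Aa, the alpha chain of I-A, was 634, 362 and 499 FPKM in the MHCII-KO libraries and 1091, 667 and 932 FPKM in WT. All MHCII-KO libraries lay below all WT libraries, but the difference did not pass the test (log2 fold change -0.85 ± 0.45 SE, adjusted p = 0.288 by limma). H2-Ab1, its beta chain partner, was 271, 108 and 165 FPKM against 183, 101 and 170 FPKM in WT, and the groups overlapped. The log2 fold change of H2-Ab1 was 0.21 with a 95% interval from -0.67 to 1.08 (adjusted p = 0.777).

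None of 8 class II chain and regulator genes was called, with a median log2 fold change of -0.27, next to the -0.25 of all genes. Ciita, the master coactivator of class II genes, was 30.1 ± 2.11 FPKM in the MHCII-KO libraries and 36.2 ± 0.949 FPKM in WT (SD, n = 3 each). Its log2 fold change of -0.26 had an interval from -0.73 to 0.21. H2-Eb1 was 397 ± 42.8 FPKM against 546 ± 137 FPKM, with an interval from -1.21 to 0.35. The largest difference in the list was that of H2-Eb2, at -0.96 (adjusted p = 0.149). Of 8 tested loading genes none was called either, at a median of -0.48. H2-Aa was called with library weights (adjusted p = 0.00175) and a replicate block (0.0481), and H2-Eb2 with library weights (0.000255), the block (0.0140), only both compared groups in the fit (0.0437) or Tyr-NrasQ61K replicate 2 left out (0.0384), each time lower than in WT. H2-Eb1 and H2-DMa were called lower with library weights (0.00884 and 0.00373). With library weights 5185 of the 11902 genes tested were called lower, and with the replicate block 2103, so such calls are common over all genes. Cd74 was 1276, 1595 and 1513 FPKM against 1772, 1113 and 1531 FPKM in WT, with overlap, and H2-DMa, which catalyses peptide exchange, differed by -0.48 (interval -1.13 to 0.17). H2-DMb2 and H2-DMb1, its partner chains, differed by -0.75 (adjusted p = 0.203) and -0.65 (adjusted p = 0.212), and both were called lower with library weights (0.000407 and 0.000307) and the replicate block (0.0372 and 0.0473). Against Tyr-NrasQ61K, H2-Aa differed by -0.06 (interval -1.05 to 0.93) and H2-Ab1 by -0.27 (interval -1.15 to 0.60). Nras was 9.80 ± 2.02 FPKM against 13.1 ± 2.44 FPKM in WT (log2 fold change -0.39, adjusted p = 0.454). The labels do not say whether reads of the transgene were assigned to this entry, so its level is no measure of transgene expression.

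**Figure D1:**
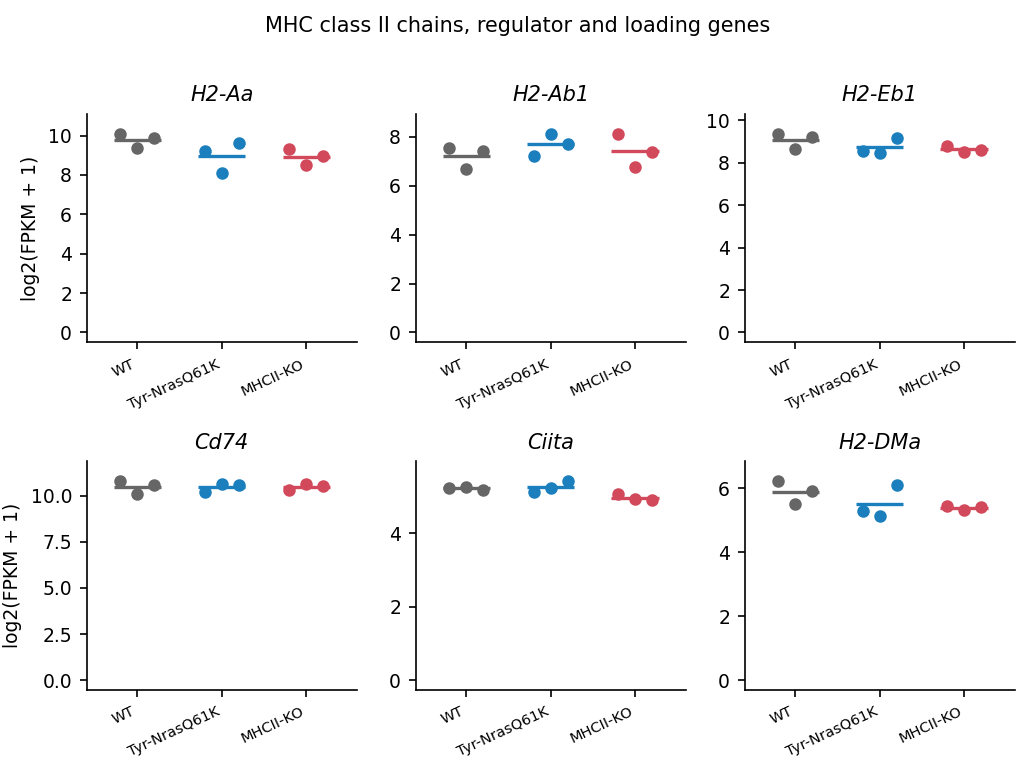
Levels of 6 MHC class II pathway genes as log2(FPKM + 1), with 1 point per library and a line at each group mean for WT, Tyr-NrasQ61K and MHCII-KO (3 libraries each). For H2-Aa the MHCII-KO libraries sit at 362 to 634 FPKM, below the 667 to 1091 FPKM of WT, and for Cd74 and H2-Ab1 the groups overlap.

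Against WT, 35 genes were higher and 73 lower in the MHCII-KO group in limma, with a threshold of 0.05 on the p adjusted by Benjamini and Hochberg, which is 0.294% and 0.613% of the genes tested. Counts of called list members below are to be read beside these shares. Before adjustment, 373 higher and 2101 lower genes had a p under 0.05. In all 108 called genes the 3 MHCII-KO libraries lay wholly above or below the 3 WT libraries, whereas over all genes this held for 7.12% upwards and 25.4% downwards. Of the higher genes, 10 had no WT library at an FPKM of 1, and of the lower genes 28 had no MHCII-KO library at that level. Such genes passed the filter only through libraries in which they were high, so their number is no support in itself. Scaling libraries by median ratios, which set the median of all genes near 0, gave 92 higher and 76 lower genes. The share of higher genes among the calls was 32.4% as reported, 54.8% with this scaling and 49.3% with quantile normalization. The direction of the split thus reversed with median-ratio scaling, while quantile normalization left higher and lower genes nearly even.

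The number of calls also depended on single libraries. Without MHCII-KO replicate 3 it fell to 11 higher and 18 lower genes, without MHCII-KO replicate 2 to 14 and 22, without WT replicate 1 to 15 and 18, and without WT replicate 3 to 12 and 22. Without WT replicate 2 it was 23 and 199, without Tyr-NrasQ61K replicate 1 it was 25 and 37, and without Tyr-NrasQ61K replicate 2 it rose to 122 and 690. A core of 17 genes was called under all 19 alternatives: Gpnmb, Trem2, Cdkn1c, Ahnak2, Gdf15, Tspan10, Mfsd12, Mamdc2 and Cdk18 were higher, and C6, Apol7c, Npr3, Ccl17, Apol6, Bpifb2, Gzmc and Glb1l2 were lower. Of these, Mamdc2, Cdk18, Apol6, Bpifb2 and Glb1l2 are named here after their values were seen. In C6, Npr3, Ccl17, Apol6, Bpifb2, Gzmc and Glb1l2 no MHCII-KO library reached an FPKM of 1, and in Gdf15 no WT library did. Such genes passed the filter only through libraries in which they were high. The alternatives also reuse the same libraries, so the core is no independent support.

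**Figure D2:**
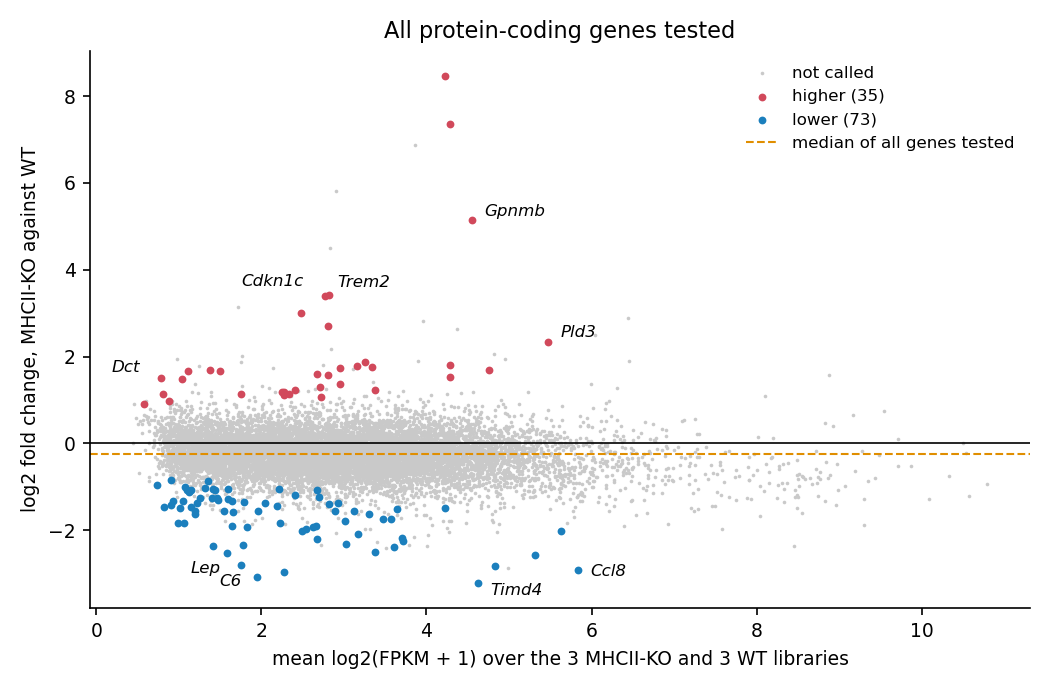
Log2 fold change of the MHCII-KO group against WT (vertical axis) by mean log2(FPKM + 1) over the 6 libraries (horizontal axis) for 11902 genes. The 35 higher genes are red and the 73 lower genes blue, and the dashed line marks the median of all genes at -0.25.

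Gpnmb, Trem2 and Mmp12, of a list of genes of macrophages that take up lipid and cell debris, were higher. Gpnmb, a transmembrane glycoprotein of lysosomes and melanosomes that lies at chr6:49036546-49070929 (GRCm38), was 109, 148 and 161 FPKM in the MHCII-KO libraries and 4.23, 1.57 and 3.56 FPKM in WT. Every MHCII-KO library exceeded every WT library by a wide margin. The mean was 44.7-fold higher, and on the log2(FPKM + 1) scale the change was 5.14 ± 0.35 SE (adjusted p = 5.17e-05). Trem2, a lipid-sensing receptor of macrophages and microglia, was 17.9, 24.9 and 21.2 FPKM against 2.08, 0.382 and 1.15 FPKM, again without overlap. Its mean was 17.7-fold higher (log2 fold change 3.41 ± 0.30, adjusted p = 0.000319), or 27.8-fold without WT replicate 1. Mmp12, the macrophage elastase, was 11.1 ± 1.92 FPKM against 3.10 ± 0.775 FPKM (SD, n = 3 each; adjusted p = 0.0298). The call for Mmp12 was lost without any 1 of the MHCII-KO or WT libraries, with adjusted p of 0.0549 without WT replicate 2 up to 0.160 without WT replicate 1.

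Of 20 tested lipid-associated macrophage genes, these 3 rose and none fell, with a median log2 fold change of 0.35. Of the others, Lgals3, Spp1 and Fabp5 showed differences of 1.89, 1.74 and 1.28 without passing the test (adjusted p = 0.0618, 0.135 and 0.188), and Apoe and Cd36 showed -0.52 and -1.25. Lgals3, Spp1, Fabp5, Apoe and Cd36 are added to the naming rule after their values were seen.

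Lysosomal proton pump subunits were among the risen genes. Atp6v0d2, a V-ATPase subunit of macrophages and osteoclasts, was 16.1, 11.0 and 18.1 FPKM against 1.62, 0.327 and 1.16 FPKM in WT. No library of either group reached the range of the other, and the log2 fold change was 3.01 ± 0.49 (adjusted p = 0.0152), although the call was lost without MHCII-KO replicate 3 (adjusted p = 0.0794) or WT replicate 3 (adjusted p = 0.0593). Atp6v0c, the ring subunit of the same pump, was 35.6, 53.7 and 57.2 FPKM against 15.6, 11.2 and 16.0 FPKM (log2 fold change 1.69 ± 0.26, adjusted p = 0.00962). It was not called without MHCII-KO replicate 2 (adjusted p = 0.0586) or replicate 3 (adjusted p = 0.0794).

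Among all 36 lysosomal genes of the list, 2 rose (Atp6v0d2 and Gla) and none fell, at a median of 0.18. Gla, the lysosomal alpha-galactosidase, was 6.33 ± 0.944 FPKM against 2.28 ± 0.788 FPKM with an adjusted p of 0.0498, and leaving out any 1 WT or MHCII-KO library, or Tyr-NrasQ61K replicate 1 or 3, ended the call (adjusted p of 0.0557 to 0.199). Atp6v0c is a pump subunit outside that list.

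A few pigment cell genes rose. Dct, dopachrome tautomerase of the melanin pathway, was 0.847, 2.10 and 3.25 FPKM in the MHCII-KO libraries, 0.0508, 0 and 0.0319 FPKM in WT, and 5.81, 4.16 and 2.77 FPKM in Tyr-NrasQ61K. It reached the filter only because the Tyr-NrasQ61K libraries were above 1 FPKM. All MHCII-KO libraries lay above WT (log2 fold change 1.50 ± 0.30, adjusted p = 0.0425), and leaving out any 1 WT library, MHCII-KO replicate 2 or 3, or Tyr-NrasQ61K replicate 1 ended that call (adjusted p of 0.0546 to 0.180). Median-ratio scaling and quantile normalization ended it too (adjusted p = 0.0510 and 0.0535). Mlana, a melanosome protein, was 0.508, 0.508 and 1.86 FPKM against 0.452, 0 and 0.143 FPKM in WT and did not pass the test (log2 fold change 0.66, interval 0.09 to 1.22, adjusted p = 0.211).

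Tspan10, a tetraspanin of pigment cells, was 16.1, 15.9 and 19.8 FPKM against 5.42, 2.62 and 4.26 FPKM, a 4.22-fold higher mean (log2 fold change 1.87 ± 0.25, adjusted p = 0.0065). Mfsd12, a transporter that imports cysteine into melanosomes and lysosomes, was 13.4 ± 3.02 FPKM against 3.33 ± 0.960 FPKM (SD, n = 3 each; adjusted p = 0.00713). Of 12 tested pigment cell genes, these 3 rose and none fell, with a median of 0.10. Their levels in WT differed: Tspan10 and Mfsd12 were measured at several FPKM in nodes where Dct was at or near 0. Mitf, the lineage transcription factor, was 3.38, 2.70 and 3.57 FPKM against 3.26, 2.80 and 2.53 FPKM and overlapped (log2 fold change 0.12), and Tyr, the melanin enzyme whose mutation makes albino mice white, was 0.970, 1.26 and 1.27 FPKM against 1.59, 0.595 and 2.04 FPKM. Mitf and Tyr were named after their values were seen.

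MITF and its relatives TFEB and TFE3, which also govern lysosomal genes, are known to bind E-box sequences, including the M-box TCATGTG of pigment genes. These letters were sought on both strands of 300-base RefSeq promoter windows (GRCm38.p6), which run from 250 bases before a start site to 50 after it. Of the 35 higher genes, 24 had a window, and 5 of these 24 held TCATGTG: Tspan10, Dct, Mmp12, Atp6v0c and Gla. The share was 20.8%, beside 2.76% of the 9377 tested genes with a window and 4.31% of all 27025 genes in the table. Of 56 lower genes with a window, 1 held it (Gm15056). The higher genes had 1.42 windows each and the genes tested 1.28. A second motif, the E-box CACGTG, whose letters are not contained in the first, was present in 12.5% of higher genes, 12.5% of lower genes and 11.6% of the genes tested. The motifs were chosen after the called genes were known, and a match of letters is neither a binding site nor a cause.

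The windows with TCATGTG are shown because they held the letters sought. That of Gpnmb is shown because it held neither motif although its gene rose most among those that are not predicted genes. Of the genes with TCATGTG, only Tspan10 kept its call without each library, as given above, so the set depends on single libraries. Each is given 5′ to 3′ on the gene's own strand, in lower case, with TCATGTG or its reverse complement in capitals.
Tspan10 (chr11:120442381-120442680, strand +): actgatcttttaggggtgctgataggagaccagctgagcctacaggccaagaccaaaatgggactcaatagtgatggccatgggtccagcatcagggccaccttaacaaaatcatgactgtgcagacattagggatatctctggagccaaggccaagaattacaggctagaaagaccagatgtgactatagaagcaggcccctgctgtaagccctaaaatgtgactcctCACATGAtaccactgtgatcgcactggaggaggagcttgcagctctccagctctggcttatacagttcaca
Dct (chr14:118052197-118052496, strand -): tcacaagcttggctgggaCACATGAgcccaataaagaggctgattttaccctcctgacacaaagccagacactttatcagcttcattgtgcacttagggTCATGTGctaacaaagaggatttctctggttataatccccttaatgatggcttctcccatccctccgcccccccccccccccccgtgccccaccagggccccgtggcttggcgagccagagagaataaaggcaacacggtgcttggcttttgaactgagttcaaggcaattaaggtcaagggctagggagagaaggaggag
Mmp12 (chr9:7347124-7347423, strand +): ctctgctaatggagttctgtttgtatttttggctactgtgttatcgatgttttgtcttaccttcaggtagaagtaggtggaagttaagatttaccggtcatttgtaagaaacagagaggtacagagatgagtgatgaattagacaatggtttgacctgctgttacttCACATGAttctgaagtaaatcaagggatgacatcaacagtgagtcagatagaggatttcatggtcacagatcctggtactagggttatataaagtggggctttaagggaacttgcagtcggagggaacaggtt
Atp6v0c (chr17:24169401-24169700, strand -): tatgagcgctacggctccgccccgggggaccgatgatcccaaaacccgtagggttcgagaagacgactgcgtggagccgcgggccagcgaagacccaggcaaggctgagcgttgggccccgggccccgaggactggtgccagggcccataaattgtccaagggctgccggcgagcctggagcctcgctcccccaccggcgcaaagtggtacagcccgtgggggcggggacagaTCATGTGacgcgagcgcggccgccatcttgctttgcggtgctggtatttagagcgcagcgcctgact
Gla (chrX:134600956-134601255, strand -): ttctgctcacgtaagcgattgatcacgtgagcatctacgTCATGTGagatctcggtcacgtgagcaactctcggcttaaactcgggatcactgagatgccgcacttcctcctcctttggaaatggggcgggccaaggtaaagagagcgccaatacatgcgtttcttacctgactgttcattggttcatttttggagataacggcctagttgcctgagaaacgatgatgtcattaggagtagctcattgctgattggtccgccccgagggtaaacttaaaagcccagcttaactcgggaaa
Gpnmb (chr6:49036268-49036567, strand +): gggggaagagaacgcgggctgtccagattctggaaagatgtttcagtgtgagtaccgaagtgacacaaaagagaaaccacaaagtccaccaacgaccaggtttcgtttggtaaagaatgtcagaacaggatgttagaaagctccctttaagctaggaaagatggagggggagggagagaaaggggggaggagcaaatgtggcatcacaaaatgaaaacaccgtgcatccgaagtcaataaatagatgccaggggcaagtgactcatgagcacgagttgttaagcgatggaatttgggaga
The motif began 21 bases before the start site in Tspan10, 17 in Atp6v0c, 83 in Mmp12 and 211 in Gla, and Dct held it at 232 and at 151 bases before the start.

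Genes of arrest and stress stood beside a cell cycle list in which nothing was called. Cdkn1c, the cyclin-dependent kinase inhibitor p57, was 13.3, 38.4 and 20.8 FPKM in the MHCII-KO libraries and 1.66, 0.778 and 1.08 FPKM in WT. The groups were far apart, with a 20.6-fold higher mean and a log2 fold change of 3.43 ± 0.33 (adjusted p = 0.000649). Gdf15, a stress-induced cytokine of the TGF-beta family, was 2.50, 4.31 and 4.52 FPKM against 0.698, 0.331 and 0.329 FPKM (log2 fold change 1.70 ± 0.22, adjusted p = 0.00483). Cdkn2c, the INK4 inhibitor p18, fell from 8.40 ± 1.96 FPKM to 3.42 ± 0.631 FPKM at an adjusted p of 0.0496, a call that was lost without any 1 of the MHCII-KO libraries, WT replicate 1 or 3, or Tyr-NrasQ61K replicate 1 or 3 (adjusted p of 0.0628 to 0.279), and with median-ratio scaling (0.0554) or quantile normalization (0.0503).

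Of 13 tested genes of that list, 2 rose and 1 fell. The inhibitors best known from senescence did not pass: Cdkn2a was 2.37, 2.57 and 1.97 FPKM against 2.39, 1.03 and 2.20 FPKM, and Cdkn1a differed by 0.26 (adjusted p = 0.555). Cdkn2a and Cdkn1a were named after their values were seen. Mki67, a marker of cycling cells, was 4.74, 3.07 and 5.48 FPKM against 11.8, 5.35 and 8.66 FPKM (log2 fold change -0.79, adjusted p = 0.198). The 29 tested cell cycle genes had a median of -0.51, and the closest to the threshold were Ccnb2 (-0.79, adjusted p = 0.168) and Mcm5 (-0.84, adjusted p = 0.179). In the RAS-ERK list none of 15 tested genes was called; the feedback phosphatase Dusp6 differed by -0.87 (adjusted p = 0.170) and the ETS factor Etv5 by -0.84 (adjusted p = 0.149).

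Other genes that rose belonged to no list. Pld3, an endolysosomal nuclease, was 59.4, 154 and 106 FPKM against 23.3, 12.8 and 21.8 FPKM (log2 fold change 2.35 ± 0.38, adjusted p = 0.0155). Ahnak2, a large scaffold protein, was 10.6, 26.9 and 16.6 FPKM against 2.07, 1.37 and 1.86 FPKM, a 10.2-fold higher mean (adjusted p = 0.00239). S100a1, a calcium-binding protein, and Anpep, the aminopeptidase CD13 of myeloid cells, rose by 1.81 and 1.75 on the log2 scale (adjusted p = 0.00858 and 0.0152). The calls of Pld3 and Anpep were lost without MHCII-KO replicate 2 (adjusted p = 0.0753 and 0.0583) or replicate 3 (0.0798 and 0.0923) and without WT replicate 3 (0.0570 and 0.0735). That of Pld3 was also lost without WT replicate 1 (adjusted p = 0.0533), and that of S100a1 without MHCII-KO replicate 3 (adjusted p = 0.0627).

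**Figure D3:**
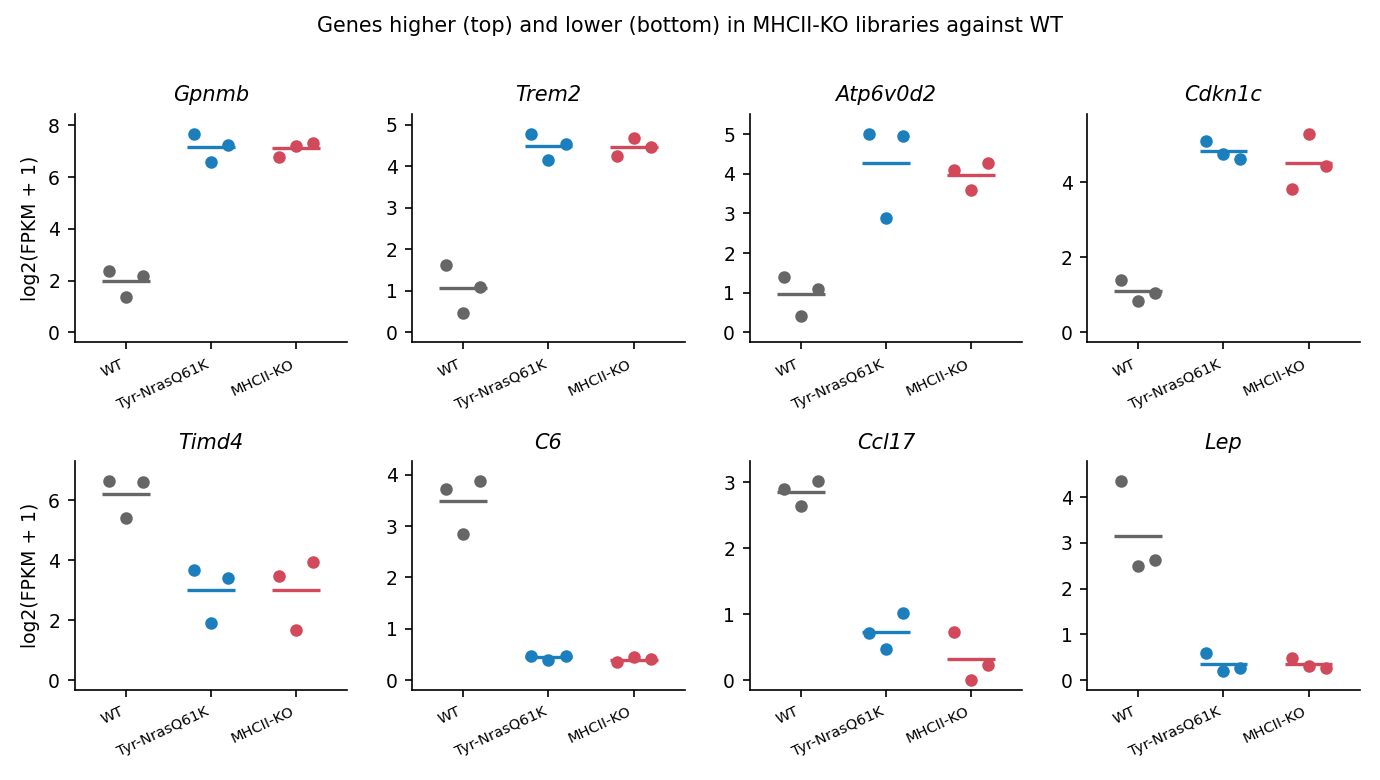
Levels of 4 higher genes (top) and 4 lower genes (bottom) as log2(FPKM + 1), with 1 point per library and a line at each group mean for WT, Tyr-NrasQ61K and MHCII-KO. In each panel the 3 MHCII-KO libraries are separate from the 3 WT libraries, from 109 to 161 FPKM against 1.57 to 4.23 FPKM for Gpnmb and from 0.269 to 0.358 FPKM against 6.22 to 13.6 FPKM for C6.

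Receptors of sinus and tissue-resident macrophages were among the genes that fell. Timd4, a phosphatidylserine receptor for apoptotic cells, was 10.1, 2.15 and 14.3 FPKM against 98.3, 41.9 and 97.2 FPKM in WT. Its mean was 8.93-fold lower and every library was below the WT range (log2 fold change -3.20 ± 0.59, adjusted p = 0.0326). Folr2, a folate receptor of resident macrophages, was 4.99, 1.76 and 4.07 FPKM against 35.2, 11.6 and 31.8 FPKM (adjusted p = 0.0326). Cd209f, a C-type lectin, was 0.597, 0.770 and 0.255 FPKM against 4.98, 3.62 and 15.3 FPKM (adjusted p = 0.0148), and Marco, a scavenger receptor, was 25.9 ± 13.2 FPKM against 108 ± 48.9 FPKM (SD, n = 3 each; adjusted p = 0.0496). Leaving out WT replicate 1 gave adjusted p of 0.161 for Timd4, 0.171 for Folr2 and 0.242 for Marco, WT replicate 3 gave 0.144, 0.151 and 0.249, and MHCII-KO replicate 2 gave 0.0950, 0.132 and 0.242. Without MHCII-KO replicate 3 the values were 0.0965 for Folr2, 0.0794 for Cd209f and 0.0627 for Marco, and without MHCII-KO replicate 1 that of Marco was 0.0954. Without Tyr-NrasQ61K replicate 1 the adjusted p was 0.0518 for Timd4 and 0.0900 for Marco, and without replicate 3 of that group 0.0639 for Marco.

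Of 23 tested genes of this list, 3 fell (Timd4, Cd209f and Marco) and none rose, at a median of -0.36. The list did not move as a whole: C1qb and Axl lay at 0.20 and 0.02, and Mertk, which like Timd4 serves the uptake of apoptotic cells, at 0.62 (adjusted p = 0.252). Siglec1, the sinus macrophage sialoadhesin, was listed at 0 in WT replicates 2 and 3 and at 37.3 FPKM in WT replicate 1, against 17.9, 8.63 and 18.6 FPKM in the MHCII-KO libraries. An exact 0 for such a gene can be a failed estimate, so no fold is given. C1qb, Axl, Mertk and Siglec1 were named after their values were seen.

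The chemokines Ccl8 and Cxcl9 also fell. Ccl8, which attracts monocytes, was 14.5, 12.8 and 40.8 FPKM against 176, 109 and 198 FPKM in WT, without overlap (log2 fold change -2.92 ± 0.45, adjusted p = 0.0115). Cxcl9, an interferon-gamma-induced chemokine for Cxcr3, was 2.01 ± 0.812 FPKM against 11.2 ± 5.15 FPKM (SD, n = 3 each; adjusted p = 0.0152). The calls of Ccl8 and Cxcl9 were lost without WT replicate 1 (adjusted p = 0.0593 and 0.0672), WT replicate 3 (0.0644 and 0.0797) or MHCII-KO replicate 2 (0.0583 and 0.0753), and that of Cxcl9 also without MHCII-KO replicate 3 (0.0743). Of 20 tested senescence-associated secretory factors, Ccl8 fell and none rose. Of 24 tested interferon response genes, Cxcl9 fell and none rose, with a median of -0.32.

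Mature migratory dendritic cells carry antigen from skin to node. All 19 tested members of their list had negative log2 fold changes, where 72.7% of all genes did, with a median of -0.81, and 4 of them fell: Ccl17, Apol7c, Ccl22 and Nudt17. Ccl17, a ligand of Ccr4, was 0.658, 0 and 0.172 FPKM against 6.48, 5.22 and 7.08 FPKM, a 22.6-fold lower mean that became 72.9-fold without MHCII-KO replicate 1 (log2 fold change -2.53 ± 0.23, adjusted p = 0.000439). Both folds of Ccl17 rest on MHCII-KO values near 0, with replicate 2 listed at 0, and their size is uncertain. Apol7c, an apolipoprotein L of dendritic cells, was 12.6, 8.72 and 8.32 FPKM against 90.4, 47.6 and 95.7 FPKM, a 7.88-fold lower mean (adjusted p = 0.000988). Ccl22, the other Ccr4 ligand, was 5.11 ± 0.758 FPKM against 20.0 ± 7.29 FPKM, and Nudt17 was 2.54 ± 0.338 FPKM against 7.29 ± 2.36 FPKM (SD, n = 3 each; adjusted p = 0.0440 and 0.0496).

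The calls of Ccl17 and Apol7c held without each library. Those of Ccl22 and Nudt17 were lost without WT replicate 1 (adjusted p = 0.223 and 0.260), WT replicate 3 (0.143 and 0.252), any MHCII-KO library (0.0727 to 0.208) or Tyr-NrasQ61K replicate 1 (0.0754 and 0.0787). That of Nudt17 was also lost without Tyr-NrasQ61K replicate 3 (0.0659), with median-ratio scaling (0.0689) and with quantile normalization (0.0674). Ccr7, the receptor that guides these cells to the node, was 24.3, 15.0 and 18.1 FPKM against 34.6, 28.4 and 35.8 FPKM and did not pass (log2 fold change -0.77, adjusted p = 0.203). Ccr7 was named after its values were seen.

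Among 18 tested dendritic cell lineage genes, Clec10a and Cd209a, lectins of type 2 conventional and monocyte-derived cells, fell by 1.74 and 1.58 on the log2 scale (adjusted p = 0.0398 and 0.0496), and none rose. Both calls were lost without WT replicate 1 (adjusted p = 0.199 and 0.238), WT replicate 3 (0.168 and 0.240), any MHCII-KO library (0.0751 to 0.226) or Tyr-NrasQ61K replicate 1 (0.0645 and 0.0909). Irf8 was not analysed here.

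Interferon-inducible GTPases act on membranes of intracellular pathogens. All 15 tested members had negative log2 fold changes, where 72.7% of all genes did, and the median was -1.14. Of the 15, 1 passed the test, beside 0.613% of all genes called lower. Gbp2 was 11.2, 10.3 and 9.06 FPKM against 34.8, 18.3 and 43.3 FPKM (log2 fold change -1.49 ± 0.30, adjusted p = 0.0425). Without WT replicate 1 or WT replicate 3 its adjusted p was 0.208 and 0.210, and without any 1 MHCII-KO library 0.0766 to 0.182. Without Tyr-NrasQ61K replicate 1 or 3 it was 0.0703 and 0.0535. These genes are near copies of each other, so reads may have been divided among them.

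Fat cell genes gave the most calls of any list. All 18 tested adipocyte genes had negative log2 fold changes, where 72.7% of all genes did, with a median of -1.51. Of the 18, 8 fell, beside 0.613% of all genes. Lep, the hormone leptin, was 0.393, 0.241 and 0.207 FPKM against 19.3, 4.62 and 5.13 FPKM, a 34.6-fold lower mean (log2 fold change -2.80 ± 0.39, adjusted p = 0.00713). Without WT replicate 1, the highest, the mean was 17.4-fold lower. Npr3, the natriuretic peptide clearance receptor, was 0.362, 0.0345 and 0.159 FPKM against 7.28, 3.63 and 4.76 FPKM (adjusted p = 0.000745). Plin4, a lipid droplet protein, and Ghr, the growth hormone receptor, fell 6.33-fold and 3.04-fold in mean FPKM (adjusted p = 0.00828 and 0.00775). Adipoq, the hormone adiponectin, was 9.63, 2.47 and 3.08 FPKM against 31.6, 35.0 and 17.4 FPKM (adjusted p = 0.0368), and Car3, carbonic anhydrase 3, was 26.2, 8.47 and 16.2 FPKM against 103, 111 and 77.9 FPKM (adjusted p = 0.0296).

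Summed over the 20 genes of the list, FPKM was 101 to 253 in the MHCII-KO libraries, 75.0 to 260 in Tyr-NrasQ61K and 433 to 743 in WT. How far fat carried with the node bears on other differences was not tested. The calls of Adipoq and Car3 were lost without any 1 WT library (adjusted p of 0.0570 to 0.177), MHCII-KO replicate 2 (0.154 and 0.125) or MHCII-KO replicate 3 (0.157 and 0.107). That of Adipoq was also lost without Tyr-NrasQ61K replicate 1 or 3 (0.0535 for each) and with median-ratio scaling (0.0526), and that of Ghr without MHCII-KO replicate 3 (0.0627) or WT replicate 1 (0.0536). Sncg, gamma-synuclein, which adipocytes also express, was 1.84, 0 and 0.812 FPKM against 18.5, 8.49 and 12.4 FPKM (adjusted p = 0.00775).

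Vessel and stromal genes gave few calls. Ackr4, the chemokine scavenger of lymphatic sinuses, entered in the deposited table as Ccrl1, was 0.893, 0.533 and 0.707 FPKM against 3.94, 2.04 and 3.59 FPKM (adjusted p = 0.0268). It was the only 1 of 17 tested vessel genes that fell, and none rose. It was not called without WT replicate 1 (0.148), WT replicate 3 (0.139), MHCII-KO replicate 2 (0.125) or MHCII-KO replicate 3 (0.111). The summed FPKM of the vessel list was 206 to 458 against 677 to 1626 in WT. Myh11, smooth muscle myosin, was 2.22 ± 0.369 FPKM against 5.75 ± 1.18 FPKM (SD, n = 3 each; adjusted p = 0.0485), and any 1 MHCII-KO library, WT replicate 1 or 3, or Tyr-NrasQ61K replicate 1 or 3 left out ended the call (0.0557 to 0.251).

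Of 15 collagen genes, none was called, and the median was 0.26, above that of all genes. Col1a1 differed by 1.21 (adjusted p = 0.203) and Col1a2 by 0.91 (adjusted p = 0.203). Of 14 homeostatic chemokine and stroma genes none was called, at a median of -0.44; Ccl19, a ligand of Ccr7, differed by -1.04 (adjusted p = 0.179) and Il7 by -0.86 (adjusted p = 0.201).

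C6, a component of the complement membrane attack complex at chr15:4727175-4814967 (GRCm38), was 0.269, 0.358 and 0.327 FPKM against 12.2, 6.22 and 13.6 FPKM. All 6 libraries of the NrasQ61K groups were between 0.269 and 0.385 FPKM, and the log2 fold change was -3.08 ± 0.25 (adjusted p = 0.000191). It was the 1 member of 14 tested complement genes that fell, and none rose. Of the 108 called genes, 8 lay on chromosome 15 (7.41%, beside 3.91% of the genes tested), with C6, Npr3 and Ghr among them. Chromosome 11 held 14 (13.0%, beside 8.58%) and chromosome 8 held 9 (8.33%, beside 5.07%). Neighbouring members of a family count here as separate genes. They were Apol7c, Apol7a and Apol6 on chromosome 15, Cd300ld2, Cd300ld4 and Cd300ld5 on chromosome 11, and Cd209a, Cd209e, Cd209f and Cd209g on chromosome 8. Apart from Apol7c, Cd209a and Cd209f, these family members were named after their values were seen. On chromosome 15 the lowest base of Ghr is 3317760, that of C6 4727175 and that of Npr3 11839896. Ghr and Npr3 are also counted in the adipocyte list. The strain label differs between WT and both NrasQ61K groups, and whether the cross bears on these genes was not tested.

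T and B cell genes showed no call in either direction. Cd3e, a chain of the T cell receptor complex, was 15.4, 10.9 and 20.4 FPKM against 9.68, 14.1 and 12.9 FPKM (log2 fold change 0.30, interval -0.35 to 0.94), while its partner Cd3g was 24.5, 7.91 and 15.3 FPKM against 59.1, 36.6 and 75.6 FPKM (log2 fold change -1.85, adjusted p = 0.198). Cd3g was lowest in MHCII-KO replicate 2. The median over 23 T cell genes was -0.39, and Cd2 differed by -0.99 (adjusted p = 0.196). Foxp3, which defines regulatory T cells, was 1.57, 1.56 and 1.42 FPKM against 2.09, 1.01 and 1.33 FPKM (log2 fold change 0.05, interval -0.42 to 0.51), and of 10 tested genes of its list the nearest to a call were Ikzf2 (-0.82, adjusted p = 0.141) and Il2ra (-0.64, adjusted p = 0.204).

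Of 16 tested activation and checkpoint genes, the closest to the threshold were Ctla4 at -1.51 (adjusted p = 0.0625) and Pdcd1 at -0.94 (adjusted p = 0.113). Ctla4 passed under 7 alternatives: median-ratio scaling (adjusted p = 0.0439), quantile normalization (0.0354), only both compared groups in the fit (0.0110), library weights (1.68e-05), a replicate block (0.0121) and Tyr-NrasQ61K replicate 2 (0.0107) or 3 (0.0298) left out. Of 11902 genes tested, 5185 were called lower with the weights and 2103 with the block. Among 17 cytotoxic and NK cell genes, Gzmc, a granzyme, fell from 1.93 ± 0.318 FPKM to 0.0686 ± 0.119 FPKM (SD, n = 3 each; adjusted p = 0.00365), and 2 of the 3 MHCII-KO libraries were listed at 0. Ms4a1, the B cell surface protein CD20, differed by -1.28 (adjusted p = 0.200) and Cd72 by -0.68 (adjusted p = 0.204), and the 20 B cell genes had a median of -0.21. In the germinal center list, Gcsam differed by -1.04 (adjusted p = 0.0646) and Fas by -1.05 (adjusted p = 0.169).

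Class I genes were not called either, 0 of 14, at a median of -0.41, with Erap1 at -0.93 (adjusted p = 0.205) and Calr at -0.79 (adjusted p = 0.214). The lowest log2 fold change in this list was -1.89. B2m, whose levels are given above, was lower in every MHCII-KO library than in any WT library. In the mast cell and neutrophil list, Ms4a2, the beta chain of the IgE receptor, fell by 1.12 on the log2 scale (adjusted p = 0.0425), and the call was lost without any 1 MHCII-KO library, WT replicate 1 or 3, or Tyr-NrasQ61K replicate 1 or 3 (0.0535 to 0.208). In the red cell list, Hbb-bs differed by -0.44 and Alas2 by -0.19, and in the handling and stress list Atf3 and Jun by 1.17 and 0.71 (adjusted p = 0.188 and 0.191).

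**Figure D4:**
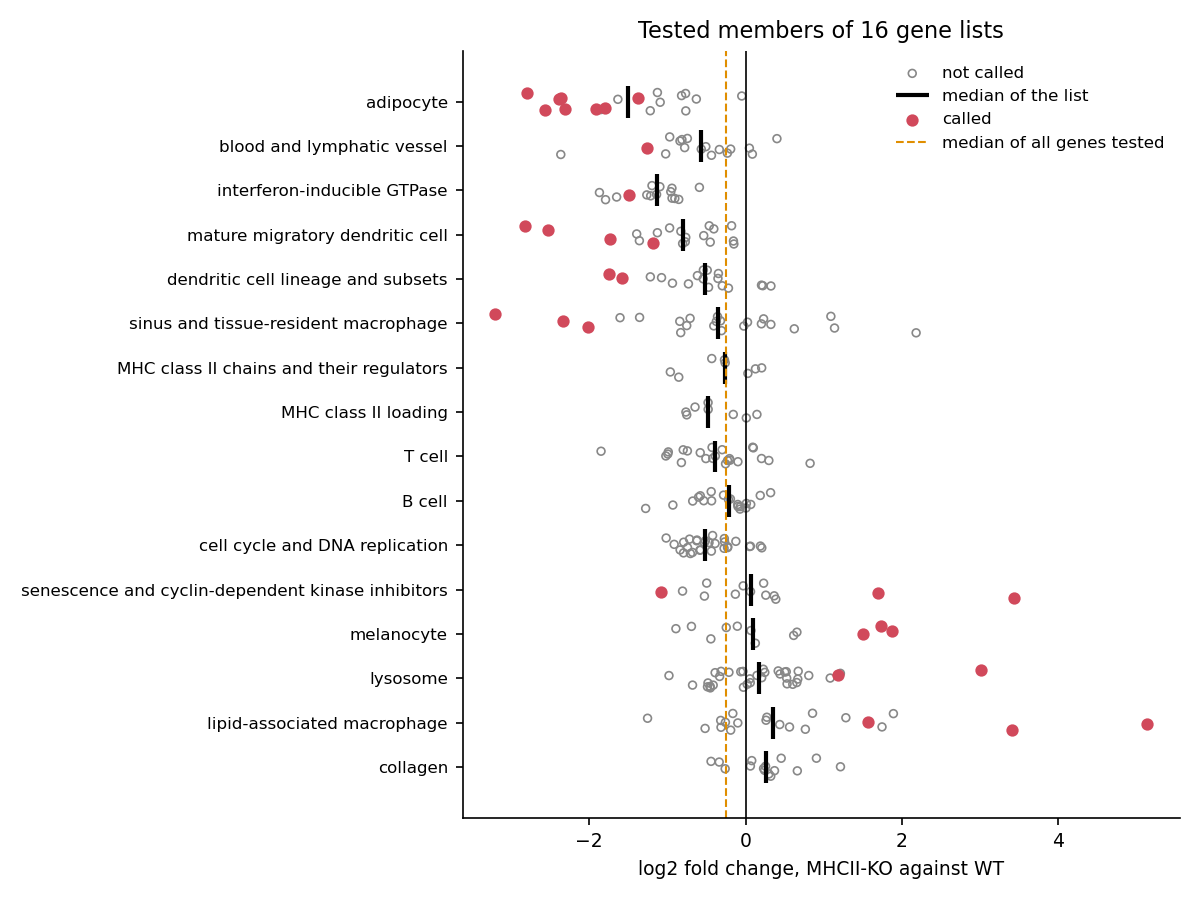
Log2 fold change of the MHCII-KO group against WT for the tested members of 16 lists, with called genes in red, others as open circles, a bar at each list's median and dashed line at the median of all genes (-0.25). The adipocyte list has its median at -1.51 and 8 called genes, and the class II chain list has its median at -0.27 and none.

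The direct comparison with Tyr-NrasQ61K asked whether these levels differ with the MHCII label, which changes together with Cre in the titles. No gene was called by limma (0 of 11902, or 0%, with the smallest adjusted p at 0.99999). Before adjustment, 17 higher and 108 lower genes had a p under 0.05. The same fit called 36 genes higher and 69 lower in Tyr-NrasQ61K against WT (0.302% and 0.580% of the genes tested). That comparison shares the WT libraries with the main comparison, so the values stand side by side and their likeness is no result.

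Gpnmb was higher than WT by 5.14 in the MHCII-KO group and by 5.20 in Tyr-NrasQ61K on the log2 scale, with a difference between them of -0.06 (95% interval -0.82 to 0.69). For Trem2 the changes were 3.41 and 3.43, and the difference -0.03 (interval -0.68 to 0.62). For Cdkn1c they were 3.43 and 3.74 (difference -0.31, interval -1.04 to 0.42). C6 changed by -3.08 and -3.04 (difference -0.05, interval -0.59 to 0.49), and Timd4 by -3.20 and -3.23 (difference 0.03, interval -1.26 to 1.32). Ccl17 changed by -2.53 and -2.12, and the difference of -0.41 had an interval from -0.92 to 0.10. Over the 108 genes called against WT, the median half-width of the interval was 0.558 on the log2 scale, and an uncalled difference does not show that the groups are alike.

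Of the 108 genes called against WT, 102 had intervals that span 0. The others were Dct, Fcor (-0.90, interval -1.46 to -0.34) and the predicted gene Gm15056 (-0.78, interval -1.33 to -0.24), below 0, and Tenm4 (0.45, interval 0.01 to 0.89) and the predicted genes Gm17604 (3.53, interval 0.26 to 6.79) and Gm10800 (4.19, interval 0.84 to 7.53), above 0. All but Dct are named here after their values were seen. Mlana and Etv5, which were not called against WT, also had intervals below 0. Dct was 2.06 ± 1.20 FPKM in the MHCII-KO group and 4.25 ± 1.52 FPKM in Tyr-NrasQ61K (SD, n = 3 each), with a difference of -0.81 on the log2 scale (interval -1.46 to -0.17), and the groups overlapped. Mlana was 0.508, 0.508 and 1.86 FPKM against 3.29, 2.65 and 2.63 FPKM, without overlap, and its difference was -1.04 (interval -1.61 to -0.48). Etv5, at 2.47 ± 0.0324 FPKM against 4.50 ± 0.617 FPKM, differed by -0.66 (interval -1.19 to -0.13). These intervals are not adjusted for 11902 tests, and none of these genes was called.

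**Figure D5:**
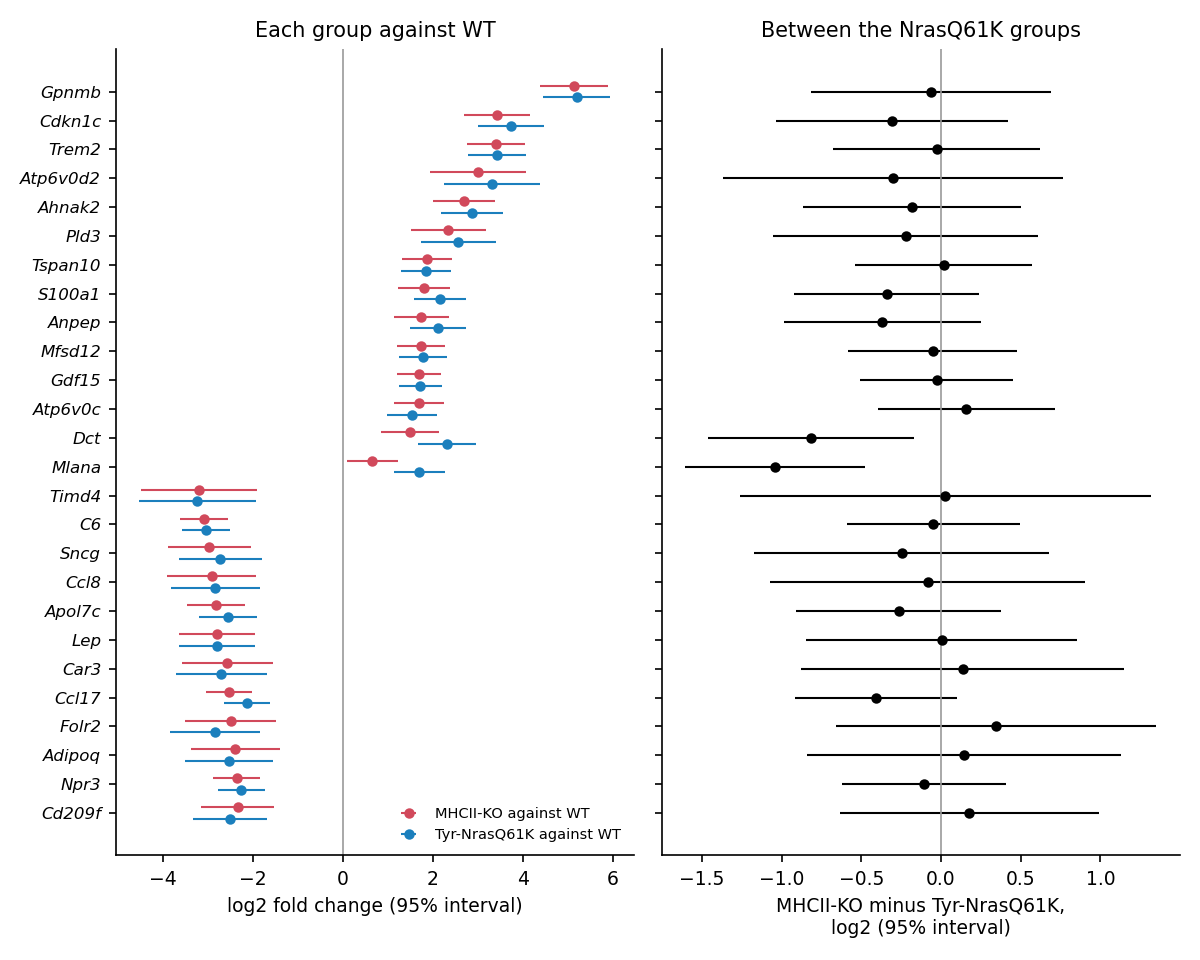
Left, log2 fold change against WT with its 95% limma interval for the MHCII-KO group (red) and Tyr-NrasQ61K (blue), for the 12 called genes that rose most and the 12 that fell most, predicted genes left out, and for Dct and Mlana. Right, the MHCII-KO group minus Tyr-NrasQ61K for the same genes, where the intervals of Dct (-1.46 to -0.17) and Mlana (-1.61 to -0.48) lie below 0 and those of the other genes drawn span it.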

How the data were processed

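Total RNA from 9 samples in 3 groups of 3 was sequenced, and the authors deposited 1 table of FPKM values per library. Per the labels, reads were processed with TopHat, Cufflinks and Cuffdiff against mm10, with versions not given in the sources used here. Of 37819 entries, 18 with several values per library were left out, and 86.8% of entries had an ID in GENCODE M21 (GRCm38), which gave gene type and position. Protein-coding genes were kept where 3 or more libraries had an FPKM of 1 or above. Values were log2-transformed after adding 1, so fold changes of low genes are understated. Group means over all 9 libraries were fitted with limma 3.58.1 (R 4.3.3; trended empirical Bayes), with two-sided tests and Benjamini-Hochberg adjustment over all 11902 genes. The fit was tested on simulated data. Values per read could not be recovered from the FPKM steps, so depth is unknown and no counting interval is given.

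Genes were named by rule: the 12 called genes that rose most and the 12 that fell most, excluding predicted genes; up to 4 called members of each list, or the 2 with the smallest p where none was called; and a fixed set of marker genes. Others are marked where they appear. One gene of the fixed set is not reported here. The members and the 30 lists were chosen with earlier results of these data known. Alternatives covered the pseudocount, filters, gene types, scaling, library weights, the groups fitted, a replicate block and each library left out.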

Additional observations from a re-analysis of the deposited data

How the results depend on the processing

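No fold change of the 41 named genes called against WT changed sign in any of the 19 alternatives, but the numbers of calls moved widely, and the cause was not tested. Against 35 higher and 73 lower genes as reported, there were 31 and 32 with a pseudocount of 0.1, 19 and 43 without a filter on low values, 13 and 11 over all gene types, 94 and 394 with only both compared groups in the fit, 107 and 110 after quantile normalization, 92 and 76 with median-ratio scaling, and 1018 and 5185 with library weights. Leaving out 1 library at a time gave 11 to 122 higher and 18 to 690 lower genes, and leaving out replicate 2 of both NrasQ61K groups gave 40 and 76. Over all gene types, the calls of 28 of the named genes, Lep, Plin4 and Sncg among them, were lost, and Sncg was also lost with a pseudocount of 0.1 (adjusted p = 0.0772). Of the 39 named genes that were not called, 32 passed with library weights, 24 with the replicate block, 13 without Tyr-NrasQ61K replicate 2, 7 with only both compared groups in the fit and 6 without WT replicate 2 (Mki67, Dusp6, Etv5, Cd3g, Ms4a1 and Ccl19 passed with the weights and the block), and 8 changed sign in at least 1 alternative. The comparison with Tyr-NrasQ61K gave 0 calls, 8 over all gene types, 6 with library weights and 0 to 1 with 1 library left out. Tyr-NrasQ61K against WT gave 105 calls, 39 over all gene types, 244 after quantile normalization, 221 with median-ratio scaling, 4893 with library weights and 36 to 176 with 1 library left out.

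Same-numbered libraries of the MHCII-KO and WT groups correlated in their deviations from the group means at -0.06, 0.18 and 0.11, and those of the MHCII-KO and Tyr-NrasQ61K groups at 0.47, 0.65 and 0.06. As 1 correlation in each set was under 0.1, the numbers were not taken to pair the libraries. MHCII-KO replicates 1 and 2 correlated best with their own number in Tyr-NrasQ61K, as a hint from the data, and replicate 3 did not. With a replicate block there were 250 higher and 2103 lower genes, 0 calls against Tyr-NrasQ61K and 2130 for Tyr-NrasQ61K against WT. Read depth is unknown, so which low values lie within counting error cannot be given.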

Other observations

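The genes in this section were chosen after their values were seen. Several called genes lay in families of close copies, where the assignment of reads between members is uncertain. Cd300ld4, a receptor-like protein of myeloid cells, was 6.45, 2.28 and 7.92 FPKM in the MHCII-KO libraries and 31.4, 16.2 and 40.7 FPKM in WT (limma adjusted p = 0.0405). Its near copy Cd300ld5 was 6.86, 2.19 and 8.15 FPKM against 30.9, 15.6 and 40.2 FPKM (adjusted p = 0.0483), and Cd300ld2 was 2.80, 0.607 and 2.63 FPKM against 11.7, 6.38 and 14.6 FPKM (adjusted p = 0.0361). Beside Cd209f and Cd209a, the lectin genes Cd209e and Cd209g fell by 1.82 and 1.63 on the log2 scale (adjusted p = 0.00962 and 0.0437). Apol7a, a relative of Apol7c, was 0.899, 0.781 and 0.797 FPKM against 7.61, 3.36 and 7.75 FPKM (adjusted p = 0.00713).

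Ccl12, a monocyte chemokine, was 2.27, 1.90 and 1.78 FPKM against 21.4, 7.52 and 12.2 FPKM (adjusted p = 0.0115). Postn, the matrix protein periostin, was 4.74, 2.56 and 3.03 FPKM against 21.5, 10.5 and 23.7 FPKM (adjusted p = 0.0338), and F13a1, coagulation factor XIII A, fell by 1.82 on the log2 scale (adjusted p = 0.0420).

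The predicted genes with the largest changes varied within groups. Gm17604 was 306, 288 and 491 FPKM in the MHCII-KO libraries, listed at 0 in every WT library, and 0, 387 and 72.5 FPKM in Tyr-NrasQ61K (adjusted p = 0.0262). Gm10800 was 139, 3963 and 27.2 FPKM against 0.845, 0.364 and 0.395 FPKM in WT, with 0.566, 54.0 and 29.2 FPKM in Tyr-NrasQ61K (adjusted p = 0.0496).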
